A study of Homo sapiens with 4 samples.

Results

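The cytosolic ribosomal protein genes were examined in HuH7, a human hepatocellular carcinoma cell line, after stable knockdown of MKL1 and MKL2. The members are the genes whose array annotation gives a symbol of RPL or RPS followed by a number and an optional letter, or RPLP0 to RPLP2 or RPSA. They had to have a probe that lists no other gene, and the brightest such probe was used where there were several. The rule used names and no measured difference. It found 57 genes, 36 of the large and 21 of the small ribosomal subunit, among 18417 genes tested, and no filter on low values was applied, so all 57 were tested. A further 11 ribosomal protein symbols are on probes that list several genes and are described separately. RPLP0, RPSA and RPS27A had no usable single-gene probe and were not analysed here.

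The ribosome joins ribosomal RNA with a large set of proteins, most of which are needed in equal numbers. Their mRNAs belong to the class that starts with a C and a tract of pyrimidines (C or T), the 5′ terminal oligopyrimidine or TOP tract, through which the kinase mTORC1 and the RNA-binding protein LARP1 control their translation together. The ribosomal RNA is made by RNA polymerase I, and many assembly factors, which are not part of the finished ribosome, process it and load the proteins.

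The 4 arrays covered 2 HuH7 samples expressing a control hairpin (shRNA) and 2 expressing hairpins directed at MKL1/2, the transcriptional co-activators of serum response factor (SRF) now named MRTFA and MRTFB. All 4 samples came from cells below passage 10 that were infected with pLKO.1 virus, selected in puromycin for 7 days and grown in 10% serum, so the controls carry a vector and the selection as well. The labels name no clone, and the titles call the samples biological replicates without saying whether infections were separate. The p-values therefore measure only the spread between these samples, which may be technical, and 4 arrays limit the precision. Values are the authors' log2 expression values, on which a difference of 1 is 2-fold, and differences are knockdown minus control.

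Over the whole table, medians per array ran from 5.68 to 5.73. The MRTFA probe, which also lists RBM15, read 7.77 and 7.80 in the control arrays and 6.81 and 6.91 in the knockdown arrays. MRTFB read 7.20 and 7.22 against 6.84 and 7.11 (limma adjusted p = 0.448). SRF read 9.80 and 9.97 against 9.37 and 9.52, a difference of -0.44 (SE 0.113, limma adjusted p = 0.188). Calls in limma at an adjusted p of 0.05 numbered 32 over all genes (0.174%), of which 15 were higher (0.0814%) and 17 lower (0.0923%). The 14 measured hepatocyte-derived markers had mean values from 9.96 to 12.52, ALB and AFP among them. Of these 14, 10 had a lower mean in knockdown cells and 4 a higher one. With no overlap, 5 were lower and 4 higher (23% and 22.5% of all genes). The median difference was -0.081 and none was called. AFP lay at -0.31 (SE 0.0983) and KRT18 at -0.28 (SE 0.0966). On the other side, AHSG lay at 0.30 (SE 0.18), GPC3 at 0.19 (SE 0.0953), ALB at 0.16 (SE 0.0985) and APOA1 at 0.09 (SE 0.097). The 13 measured stromal, endothelial and immune markers had mean values between 2.79 and 8.88. The highest of these 13 were CD68 and LUM. CD68 read 8.74 and 8.91 in the controls and 9.42 and 8.46 in the knockdown arrays. All 4 measured immune markers had a higher mean in knockdown cells, by 0.083 to 0.30, with none called. PTPRC, a marker of white blood cells, read 2.78 and 2.80 against 3.22 and 2.96. These values lie under the lower quartile of each array (3.99 to 4.02). The part of all these markers in the results was not tested.

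The start sites of the members show what most of them share apart from their product. Promoter sequences from RefSeq (GRCh38.p14) were matched by symbol for 48 of the 57 genes, and 7 of the 48 have several listed starts. A start was counted as TOP where the first transcribed base is C and the next 4 are C or T. Windows of 30 bases, 15 before the start and 15 from it onward, are printed for members described below, 5′ to 3′ on the gene's strand. Capitals mark the longest run of pyrimidines in the window.
RPL26 (chr17:8383179-8383208, minus strand): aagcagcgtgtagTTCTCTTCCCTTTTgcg
RPS25 (chr11:119018329-119018358, minus strand): tctgagcagcgCTTCCTTTTTgtccgacat
RPL13 (chr16:89560667-89560696, plus strand): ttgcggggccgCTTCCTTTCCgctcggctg
RPL29 (chr3:51995881-51995910, minus strand): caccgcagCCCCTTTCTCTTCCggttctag
RPL28 (chr19:55385917-55385946, plus strand): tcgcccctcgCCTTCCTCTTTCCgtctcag
RPL34 (chr4:108620561-108620590, plus strand): aaaggCTTTTTTCTTCCTCTTCCggggacg
RPS21 (chr20:62387088-62387117, plus strand): ggtgactagctgCTTCCTTTCTCTCTCgcg
RPS6 (chr9:19380222-19380251, minus strand): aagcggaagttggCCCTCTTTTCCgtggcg
RPLP1 (chr15:69452803-69452832, plus strand): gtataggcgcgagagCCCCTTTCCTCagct
RPS7 (chr2:3575245-3575274, plus strand): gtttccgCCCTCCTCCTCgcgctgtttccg
RPS15 (chr19:1438381-1438410, plus strand): tgcgcaggcgcggaccaaagcgaTCTCTTC
RPS29 (chr14:49598696-49598725, minus strand): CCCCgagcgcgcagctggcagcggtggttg
The first 9 of these windows hold a TOP start, and those of RPS7, RPS15 and RPS29 do not at the listed start.

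A TOP start was found in 36 of the 48 matched members (75%), against 5.14% of the 27305 genes with a promoter in the table. It was found in 4 of 43 matched ribosome assembly factors and in 6 of 66 mitochondrial ribosomal protein genes. The longest pyrimidine run in the members' windows had a median of 11 bases, and ran from 4 to 24. In promoters from 250 bases before to 50 after the start, searched on both strands, CCGGAA, a core of ETS factor sites, was in 27 of 48 members (56.2%) and in 20.1% of all genes. CACGTG, the site bound by MYC and MAX, was in 3 of 48 members (6.25%) and in 8.77% of all genes. The same letters were in 19 of 43 assembly factors (44.2%). AAGATGGC, a core of YY1 sites, was in 4 of 48 members (8.33%) and 3.52% of all genes. These matches are descriptions of letters and not of binding.

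The CArG box, the motif SRF binds, was searched because MKL1 and MKL2 are co-activators of SRF. It was in 2 of 48 members (4.17%) and in 1.6% of all genes. Both windows are shown with the box in capitals.
RPL24 (chr3:101686728-101686757, minus strand): cccgcagcgaCCTTATAAGGtctcttccca
RPS28 (chr19:8321458-8321487, plus strand): gctagaacgtCCTATAAAGGctctccccga
The box begins 29 bases before the start of RPL24 and 28 bases before that of RPS28. Both boxes also contain the letters TATAA, and a match of letters does not show that SRF binds there. RPL24, a large-subunit protein, read 10.99 and 10.89 in the control arrays and 10.95 and 10.93 in the knockdown arrays, a difference of -0.0033 (SE 0.0967). RPS28, a small-subunit protein near the mRNA exit, read 12.72 and 12.83 against 12.77 and 12.84, a difference of 0.031 (SE 0.0987). In both genes the groups overlapped.

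The knockdown left ribosomal protein transcripts close to their control levels, with most members slightly higher. None of the 57 members passed an adjusted p of 0.05 in limma (smallest adjusted p = 0.223), beside 0.174% of all genes. At an unadjusted p under 0.05 there were 5 higher members and 1 lower, where 6.25% of all genes were higher and 8.04% lower by that rule, so the higher count lies near the background and the lower count under it. The mean was higher in knockdown cells in 48 members and lower in 9, while 52% of all genes had a higher mean. Both knockdown arrays lay above both control arrays in 30 members (52.6%), against 22.5% of all genes, and below them in 2 (3.51%), against 23%. Groups without overlap in either direction made up 45.5% of all genes. With array medians set equal these counts were 22 and 4. No member differed by 2-fold or more, as 0.532% of all genes did. The median difference was 0.086, against 0.0082 over all genes (0.054 and -0.024 with array medians set equal), and the differences ran from -0.28 for RPS15 to 0.38 for RPL26. All 57 limma intervals of 95% lay within 2-fold in either direction, with an outermost lower bound of -0.53 and upper bound of 0.65. The array medians were nearly equal, so a change in all RNA per cell would not be seen. In bulk RNA fewer cells and less RNA per cell cannot be told apart.

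**Figure D1:**
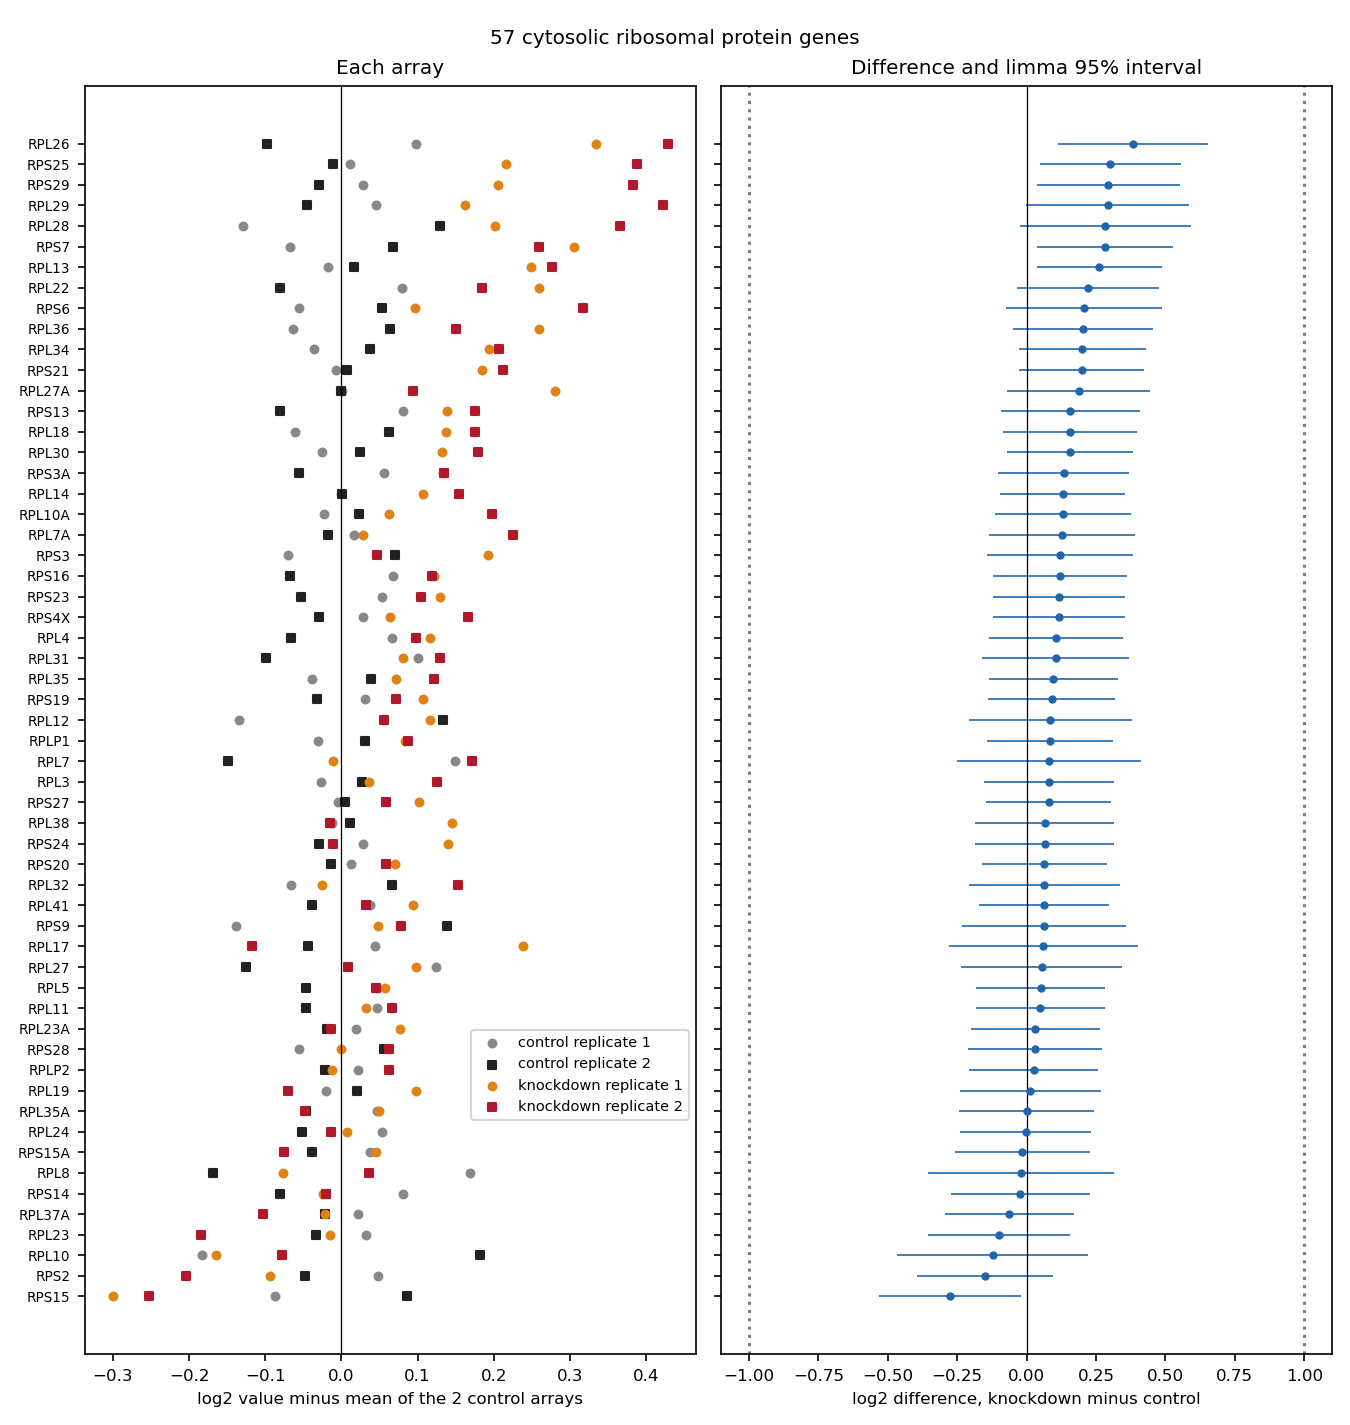
The left panel plots, for each of the 57 ribosomal protein genes, the log2 value of every array minus the mean of the 2 control arrays, and the right panel the log2 difference (knockdown minus control) with limma's 95% interval and dotted lines at 2-fold. Most knockdown points lie to the right of the control points by less than 0.4, 48 of the 57 differences are above 0, and no interval reaches 2-fold.

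The members' medians were alike in both knockdown arrays. The members' median lay 0.098 above the control mean in knockdown replicate 1 and 0.094 above it in replicate 2. Control replicate 2 lay 0.039 below control replicate 1 by the same measure (median -0.039). Measured gene by gene, 38 members were above the control mean in both knockdown arrays, 6 below it in both, and 13 on opposite sides. The gap between the knockdown arrays had a median of 0.075 over the members and 0.142 over all genes, and that between the controls 0.094 and 0.091. The difference between groups exceeded the gap within each group in 25 members (43.9%) and in 32.5% of all genes. The median limma interval had a half-width of 0.245, so for a single gene an interval centred on the median difference would include 0.

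The members are bright on these arrays, and their differences were set beside those of all genes by level. The mean value was at least 9 in 50 of the 57 members. It was below 7 only in RPS29, RPL17 and RPL22, at 6.03, 6.06 and 6.18. When all genes were put into 10 groups of equal size by mean value, the brightest group held 50 of the members. In it the median difference over 1842 genes was -0.026, and over those 50 members 0.088. This group spans mean values from 8.98 to 12.93, and levels were not matched within it. In that group both knockdown arrays were above both controls in 23.7% of genes and below them in 34.3%. The medians of the 10 groups ran from -0.06 to 0.046 and were below 0 in the 4 brightest. A part of signal level in the members' differences was not tested.

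**Figure D2:**
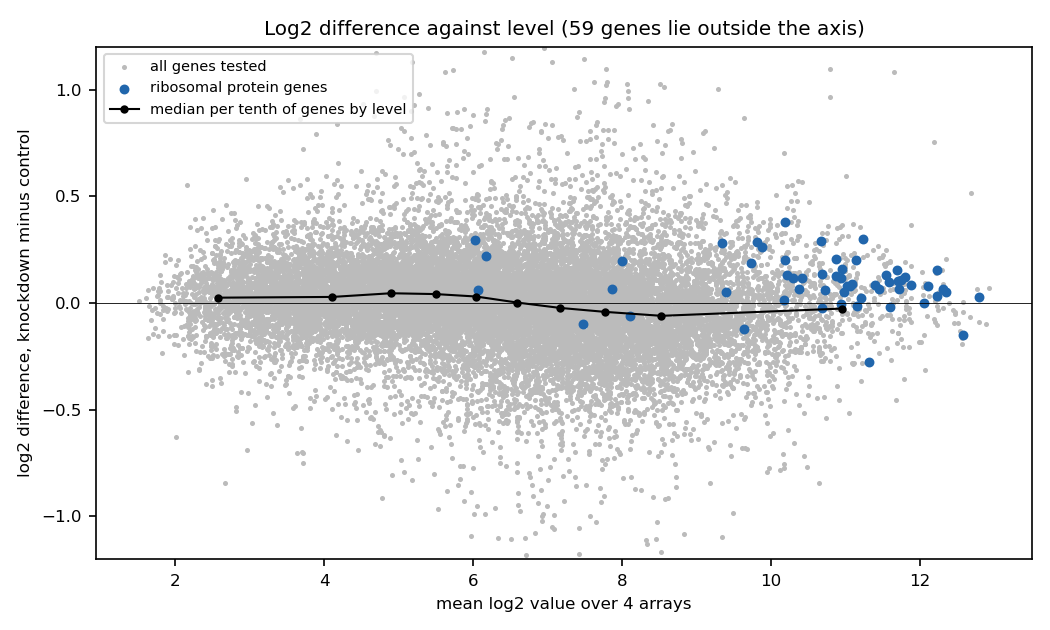
Log2 difference (knockdown minus control) of each gene against its mean log2 value over the 4 arrays (genes beyond the vertical axis range are not drawn), with the ribosomal protein genes in blue and the median of each of 10 groups of genes by level as a black line. The blue points gather at the bright end, mostly above the line, which is at -0.026 in the brightest group.

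Among large-subunit proteins, 31 of 36 had a higher mean in knockdown cells, 17 of them with no overlap between the groups (22.5% of all genes) and none lower with no overlap (23%), and the median difference was 0.083. RPL26, which sits near the exit of the tunnel through which the new peptide leaves, read 10.10 and 9.90 in the control arrays and 10.33 and 10.43 in the knockdown arrays. Its difference of 0.38 (SE 0.111, limma adjusted p = 0.223) was the highest of the members, and the groups did not overlap. RPL13, a protein of the large subunit mutated in a skeletal dysplasia, read 9.73 and 9.76 against 9.99 and 10.02, with a gap between groups far wider than that within them. Its difference was 0.26 (SE 0.0925, limma adjusted p = 0.288). The dimmest of its 3 single-gene probes overlapped, with a difference of 0.065, and the average of the 3 gave 0.19. A probe that also lists SNORD68 overlapped as well, with a difference of 0.16. RPL29 read 10.57 and 10.48 in control and 10.69 and 10.95 in knockdown cells, so that on this probe knockdown replicate 2 gave most of its difference of 0.29 (SE 0.121). A second, dimmer RPL29 probe read 9.14 and 9.28 against 9.59 and 9.68, with both knockdown arrays clear of the controls. The difference on that probe was 0.43, and the average of both probes gave 0.36. RPL28 read 9.54 and 9.79 against 9.87 and 10.03, close to overlapping, with a difference of 0.28 (SE 0.127). RPL34 was tighter, at 11.01 and 11.08 against 11.24 and 11.25, a difference of 0.20 (SE 0.0941). A second, dimmer RPL34 probe overlapped, with a difference of 0.013, and the average of both gave 0.11. RPL22, which has a paralog that can stand in for it, read 6.15 and 5.99 against 6.33 and 6.25, and RPL36 10.02 and 10.15 against 10.34 and 10.23. Neither overlapped, and their differences were 0.22 and 0.20.

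Other large-subunit members moved little or apart between the knockdown arrays. RPL5 and RPL11, which with 5S RNA form the particle that can bind the p53 regulator MDM2, had differences of 0.051 (SE 0.0957) and 0.05 (SE 0.0961). RPL5 read 12.37 and 12.28 against 12.38 and 12.37, and RPL11 10.996 and 10.90 against 10.98 and 11.02, and the groups overlapped in both. The dimmer single-gene probes of RPL5 were higher with no overlap, with differences of 0.104 and 0.133. RPLP1, of the stalk that recruits elongation factors, read 11.80 and 11.86 against 11.92 and 11.92, whereas its partner RPLP2 overlapped at 11.22 and 11.18 against 11.19 and 11.26. The differences were 0.085 (SE 0.0934) and 0.025 (SE 0.095), and that of RPLP2 turned to -0.0073 with array medians set equal and to -0.012 without knockdown replicate 2. RPL17, at the exit tunnel, read 6.08 and 5.99 in control and 6.27 and 5.91 in knockdown cells, the widest gap of any member between the knockdown arrays. Its difference was 0.061 and became -0.12 without knockdown replicate 1. This probe is dim, with a mean of 6.06. Probes that also list RPL17-C18orf32 had means of 11.07 and 10.85. Their differences were 0.086, with overlap, and 0.10, higher with no overlap. RPL7A read 10.83 and 10.79 against 10.84 and 11.03. RPL10, which joins the large subunit late in its maturation, read 9.51 and 9.88 against 9.53 and 9.62, so its difference of -0.12 (SE 0.141) lay inside the gap between the controls and was 0.061 without control replicate 2. RPL23 read 7.56 and 7.49 against 7.51 and 7.34 and overlapped.

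Among small-subunit proteins, 17 of 21 had a higher mean, 13 with no overlap (22.5% of all genes) and 2 lower with no overlap (23%), and the median difference was 0.115. RPS25, needed for initiation at several internal ribosome entry sites, read 11.09 and 11.07 in the control arrays and 11.30 and 11.47 in the knockdown arrays. The difference was 0.30 (SE 0.104, limma adjusted p = 0.28), with replicate 2 the higher. RPS7, one of the proteins that can bind MDM2, read 9.13 and 9.27 against 9.51 and 9.46, a difference of 0.28 (SE 0.101, limma adjusted p = 0.291). RPS29, a zinc-binding protein of the subunit's head, read 5.91 and 5.86 against 6.09 and 6.27, a difference of 0.29 (SE 0.106). RPS21 read 7.89 and 7.91 against 8.09 and 8.11, and both groups were tight, with a difference of 0.20 (SE 0.0922). RPS6, the substrate of the S6 kinases downstream of mTORC1, read 10.71 and 10.82 against 10.87 and 11.09, a difference of 0.21 (SE 0.116) that came mostly from replicate 2.

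RPS15 and RPS2 went the other way. RPS15, which lies near the decoding site and is needed for export of the small subunit from the nucleus, read 11.37 and 11.54 in control and 11.16 and 11.20 in knockdown cells. Its difference was -0.28 (SE 0.105, limma adjusted p = 0.319). A second, dimmer probe of RPS15 read 5.65 and 5.58 against 5.76 and 5.75, a difference of 0.14, so the 2 probes disagree, and their average gave -0.067. RPS2, at the mRNA entry channel, read 12.70 and 12.60 against 12.56 and 12.45, a difference of -0.15 (SE 0.101), and its 3 single-gene probes ran from -0.15 to -0.098. These were the 2 members in which both knockdown arrays lay below both controls.

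Diamond-Blackfan anaemia is an inherited failure of red cell production, and 16 of 20 listed genes mutated in it were measured. Of these, 15 had a higher mean, 8 with no overlap (52.6% of all members and 22.5% of all genes), and the median difference was 0.072. Members with a TOP start (36) had a median difference of 0.118 and those without one at any listed start (12) of 0.072, as a description with no test. Both groups were mostly higher, in 32 and 11 genes.

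Several single-gene probes were present for 21 members. In 19 of these all probes gave the same direction, and RPS15 and RPL41 were the exceptions. RPS3A had 5 probes with differences from 0.104 to 0.195. RPL27A gave 0.19 for the probe used and up to 0.44 for a dimmer one. As background, ribosomal protein genes have many processed pseudogenes of near-identical sequence, so a probe may read more than its named gene. The 11 symbols found only on probes that list several genes were RPL6, RPL9, RPL13A, RPL21, RPL36A, RPL37, RPL39, RPS10, RPS12, RPS18 and RPS26. All 11 had a higher mean on their brightest probe (52% of all genes), 7 with no overlap (22.5% of all genes). Their median difference was 0.137. RPL36A, whose probe also lists RPL36A-HNRNPH2, read 10.43 and 10.33 against 10.74 and 10.71. RPL39 read 11.13 and 10.98 against 11.33 and 11.41 on a probe that also lists RPL39P5 and ZNF525. RPL13A read 11.60 and 11.67 against 11.81 and 11.97 on a probe that also lists 3 of its pseudogenes. Because these probes list other genes, the values are not counted among the 57.

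The ribosome assembly factors lay on the other side of the controls. Of 55 measured, 48 had a lower mean in knockdown cells and 7 a higher one, 32 were lower and 2 higher with no overlap (23% and 22.5% of all genes), and the median difference was -0.144. None passed in limma (smallest adjusted p = 0.133), and 12 lower and 1 higher had an unadjusted p under 0.05 (8.04% and 6.25% of all genes). This list's typical values lie near a mean of 8.09, where 2 of the 10 groups of genes by level meet. In those 2 groups 33.4% and 37% of genes were lower with no overlap, and the medians were -0.041 and -0.06. Against the control mean, the list lay at a median of -0.177 in the first knockdown replicate and -0.127 in the second, beside -0.067 between the controls. DDX56, a nucleolar RNA helicase, read 8.71 and 8.63 in control and 8.20 and 8.20 in knockdown cells, a difference of -0.47 (SE 0.0945, limma adjusted p = 0.133). EMG1, which methylates the small-subunit RNA, read 7.57 and 7.49 against 7.12 and 7.03, and MAK16, a large-subunit assembly factor, 8.07 and 7.95 against 7.47 and 7.70. All 3 were separated by more than the gap within either group. The difference between this list and the ribosomal protein genes was not tested.

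**Figure D3:**
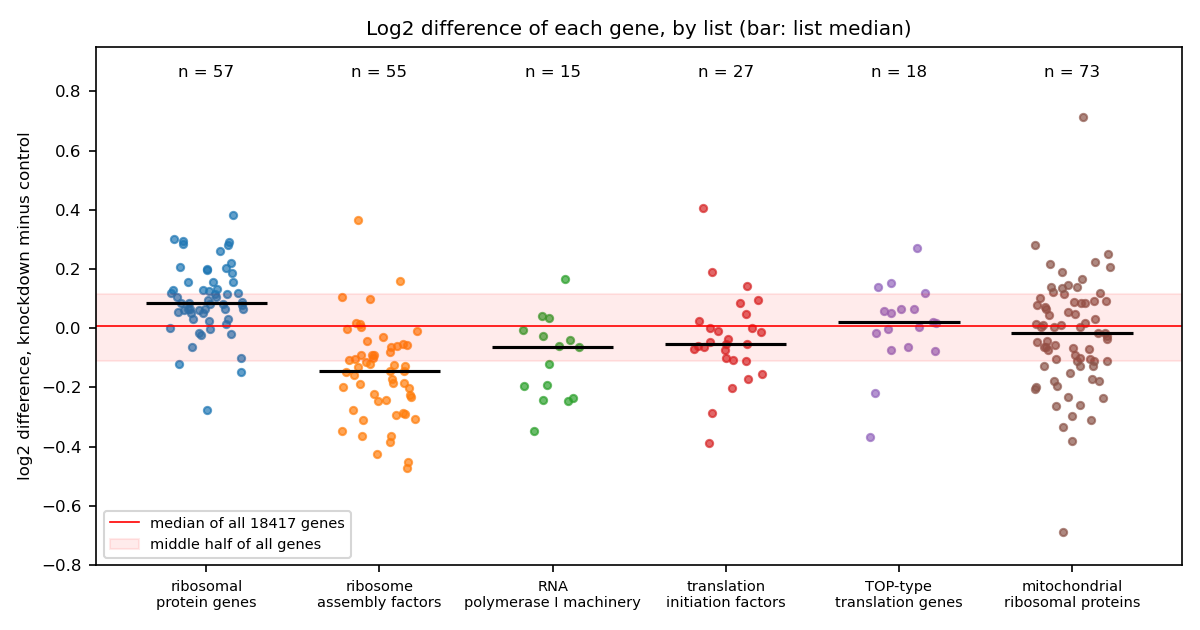
Log2 difference (knockdown minus control) of each gene in 6 lists, with a black bar at each list's median, a red line at the median of all 18417 genes and a pink band from their lower to their upper quartile. The ribosomal protein genes have a median of 0.086 and the ribosome assembly factors one of -0.144.

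RNA polymerase I and its factors, and the initiation factors, had a lower mean in most genes. Of 15 genes of the polymerase I machinery, 12 had a lower mean and 7 were lower with no overlap (23% of all genes), with a median of -0.063 (-0.095 with array medians set equal). None passed in limma (1 lower at an unadjusted p under 0.05, beside 8.04% of all genes). Among all genes with mean values from 7.45 to 8.09, where this list's typical values lie, the median was -0.041 and 33.4% were lower with no overlap. TAF1B, a subunit of the selectivity factor SL1, read 7.83 and 7.53 against 7.25 and 7.41, its partner TAF1A 5.71 and 5.49 against 5.39 and 5.34, and the shared subunit POLR1C 7.19 and 7.25 against 6.83 and 7.12. Of 27 initiation factors none passed, and 20 had a lower mean. At an unadjusted p under 0.05, 2 were lower and 1 higher (8.04% and 6.25% of all genes). With no overlap, 8 were lower and 5 higher (23% and 22.5% of all genes), so these counts lie near the background. Their median was -0.053, and it was -0.030 after quantile renormalization, -0.086 with array medians set equal and -0.022 without knockdown replicate 1. In the brightest group of genes, where this list's typical values lie, the median was -0.026. In that group 34.3% were lower and 23.7% higher with no overlap. EIF2S3, a subunit of the factor that brings the initiator tRNA, stood apart at 10.11 and 10.11 against 10.48 and 10.55, a difference of 0.40 (SE 0.0944, limma adjusted p = 0.163). EIF2B3 and EIF2B1, of its nucleotide exchange factor, read 6.66 and 6.47 against 6.14 and 6.21, and 8.18 and 8.23 against 7.93 and 7.91. Their differences were -0.39 (SE 0.108) and -0.29 (SE 0.093). Of 18 further genes known for TOP mRNAs, 11 had a higher mean and the median was 0.020 (-0.012 with array medians set equal, -0.011 without control replicate 2). None of the 18 passed (1 lower and 1 higher at an unadjusted p under 0.05, beside 8.04% and 6.25% of all genes). Among them the elongation factor gene EEF1D read 9.62 and 9.80 against 9.93 and 10.03, a difference of 0.27 (SE 0.109). VIM, which encodes vimentin, read 11.40 and 11.38 against 10.88 and 11.16, a difference of -0.37 (SE 0.123). HNRNPA1, an RNA-binding protein gene, overlapped at 6.25 and 6.10 against 5.79 and 6.12.

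**Figure D4:**
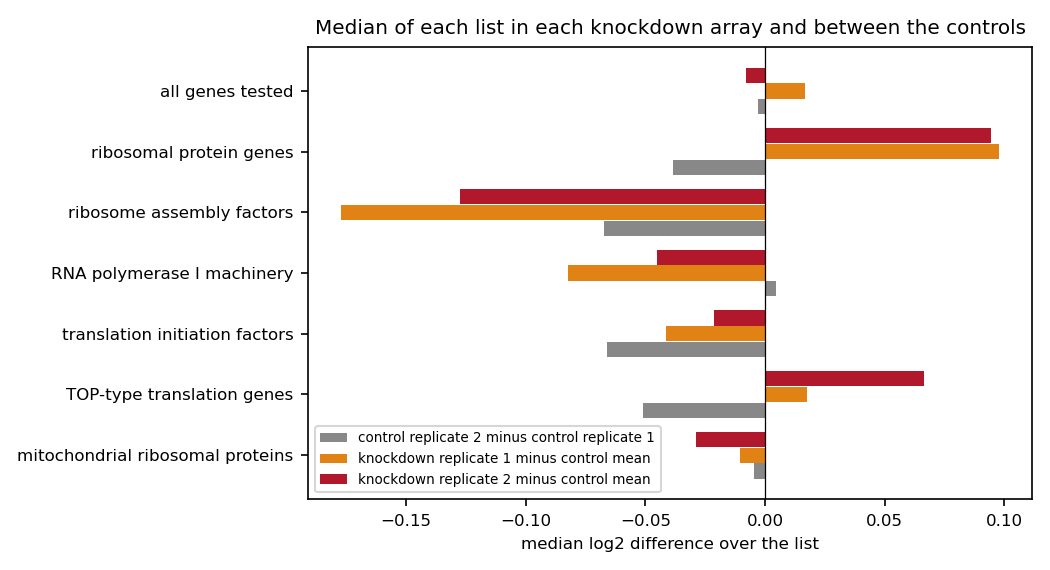
Median log2 difference of all genes and of 6 lists, for knockdown replicates 1 and 2 against the control mean and for control replicate 2 against control replicate 1. The ribosomal protein genes lie at 0.098 and 0.094 in the knockdown arrays, and the assembly factors at -0.177 and -0.127.

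Mitochondrial ribosomal proteins, which serve the separate ribosome of that organelle, were evenly divided. Of 73, 35 had a higher and 38 a lower mean, with 16 higher and 24 lower with no overlap (22.5% and 23% of all genes). The median was -0.015, and it was 0.0037 after quantile renormalization and 0.0017 without control replicate 1. None passed in limma (3 higher and 7 lower at an unadjusted p under 0.05, beside 6.25% and 8.04% of all genes). MRPL52 read 7.24 and 7.50 against 7.98 and 8.18, a difference of 0.71 (SE 0.132, limma adjusted p = 0.123), and MRPL44 7.66 and 7.39 against 6.62 and 7.05, one of -0.69 (SE 0.171). MRPL9 read 9.22 and 9.27 against 8.84 and 8.98, a difference of -0.33 (SE 0.101). The differences of MRPL52 and MRPL44 exceeded in size any among the cytosolic members, which ran from -0.28 to 0.38.

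Close relatives of the members that the naming rule leaves out were also divided. Of 8 paralogs 4 had a higher and 4 a lower mean, and none passed in limma or at an unadjusted p under 0.05. RPL7L1 read 9.91 and 9.88 against 9.70 and 9.67. RPS27L, a p53 target, read 6.09 and 6.003 against 6.11 and 6.51, with only knockdown replicate 2 well clear of the controls, and RPL10L 5.82 and 5.99 against 6.03 and 6.07. FAU, which encodes a ubiquitin-like protein fused to a small-subunit protein, read 9.30 and 9.28 against 9.24 and 9.12, a difference of -0.10 (SE 0.098).

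Regulators of ribosome production gave no call in limma either. Of 22 genes of the MYC, mTORC1 and TOP control list, 3 were lower and 1 higher at an unadjusted p under 0.05 (8.04% and 6.25% of all genes). MXD4, which competes with MYC for the partner MAX, read 7.43 and 7.43 in control and 7.85 and 8.001 in knockdown cells, a difference of 0.50 (SE 0.101, limma adjusted p = 0.136). RPTOR, the substrate-binding subunit of mTORC1, read 7.95 and 7.95 against 7.58 and 7.58, and the kinase gene MTOR 8.71 and 8.66 against 8.26 and 8.39. Their differences were -0.37 (SE 0.0917, limma adjusted p = 0.185) and -0.36 (SE 0.1, limma adjusted p = 0.211), with no overlap. In the p53 list, where faulty ribosome assembly is known to act, 2 of 9 genes were higher and 1 lower at an unadjusted p under 0.05 (6.25% and 8.04% of all genes). GDF15, a secreted stress cytokine, read 9.29 and 9.22 against 8.72 and 8.50, a difference of -0.64 (SE 0.114, limma adjusted p = 0.116). SESN1 read 6.13 and 6.47 against 6.72 and 6.79, a difference of 0.46 (SE 0.135). CDKN1A, the cell cycle inhibitor p21, read 6.29 and 6.31 against 6.99 and 6.48, so that most of its difference came from replicate 1. Without knockdown replicate 1 GDF15 passed, and without knockdown replicate 2 CDKN1A and MRPL44 did, with adjusted p-values of 0.0378, 0.0303 and 0.036 in limma. Those fits called 299 and 781 genes over the whole table, and with 1 knockdown array left the spread comes from the controls alone.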

How the data were processed

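Total RNA was labelled with biotin for whole-transcript arrays. The authors deposited log2 expression values for 33297 probes, whose log2 scale was inferred from the values. The submitters' processing notes name Partek. How background was corrected and arrays were normalized is not given in the sources used here. Scanner files were not used here. Probes were named from the platform annotation, with symbols updated through Entrez identifiers in RefSeq (GRCh38.p14), and the brightest single-gene probe per gene was kept (18417 genes).

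Groups were compared with limma 3.58.1 in R 4.3.3 (lmFit, eBayes, group as the only term, two-sided) over all genes with Benjamini-Hochberg adjustment and a threshold of 0.05. There are 2 residual and 4.12 prior degrees of freedom. The fit was checked on simulated data. With 2 arrays per group no exact permutation test can reach the threshold, so lists are described by counts and medians.

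The members and lists were chosen with earlier results of these data known. Per-array values are given for the members with the 12 smallest p-values, the 4 lowest and 4 highest differences and the 4 widest gaps between knockdown arrays, for members of fixed roles (P-stalk, 5S particle, RPS6, RPL13A), and for the 3 smallest p-values in each pathway list. RPL24 and RPS28 were added for their promoter match. RPL36A, RPL39, RPL27A, RPS3A, RPL41, CD68, AFP, KRT18, AHSG, GPC3, ALB and APOA1 were added after their values were seen. Protein features were not analysed here. Promoter sequences were searched with regular expressions, counting a gene where any listed start matched.

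The alternatives were dropping the dimmest 40% of genes, quantile or median renormalization, probe averages, every listed probe as a feature, trended robust moderation, a threshold of 0.1, a replicate block, and fits without each array.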

Additional observations from a re-analysis of the deposited data

How the results depend on the processing

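No ribosomal protein gene passed in limma under any alternative run, including an adjusted p of 0.1, and the smallest adjusted p ranged up to 1 when an array was left out. Over all genes, the number called ran from 0 without either control array to 781 without knockdown replicate 2. The members' median difference stayed above 0 in every setting, from 0.054 with array medians set equal to 0.105 without control replicate 1, and from 0.078 to 0.105 when 1 array was left out. The median of all genes moved from 0.0082 to -0.024 with array medians set equal. Members higher with no overlap numbered 22 with array medians set equal, 56 of 107 features with every listed probe used, and 36 to 42 when 1 array was left out, where fewer values make overlap rarer by construction. Members lower with no overlap numbered 4 with array medians set equal, 7 of the 107 features, and 2 to 9 when 1 array was left out. Among 22 named members 3 changed sign: RPL10 (-0.30 to 0.061 when 1 array was left out, above 0 without control replicate 2), RPL17 (-0.12 to 0.24, below 0 without knockdown replicate 1) and RPLP2 (-0.012 to 0.062, below 0 without knockdown replicate 2, and -0.0073 with array medians set equal). The cause was not tested. The median of the assembly factors ran from -0.177 to -0.121 and stayed below 0. With the replicate number as a block, 0 members passed (smallest adjusted p = 0.293), the median stayed at 0.086, and 93 genes passed over the whole table against 32 without it. The deviations of same-numbered arrays correlated at -0.067, so the samples were taken to share a number and nothing more. With no scanner files, no signal over background stands behind a value.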
